A study of Homo sapiens with 6 samples.

Results

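Readthrough genes are annotated genes whose transcripts join exons of an upstream gene to exons of the next gene on the same strand, and they carry a compound name of the form A-B. In the deposited table of 61228 gene names, 136 names had this form with A and B each listed as a gene of its own. The 80 names with at least 20 estimated counts summed over the 6 libraries are described here, with their parent genes A (upstream) and B (downstream) as context. A further 34 such names had counts below that limit and 22 had 0 counts. The genes were chosen by their name and by the summed count over all libraries, so those sums are given as a description. Just inside it were *ZNF286A-TBC1D26* with 21.6 counts, *PDCD6-AHRR* with 21.0 and *FPGT-TNNI3K* with 20.8, and just outside it were *C1QTNF3-AMACR* with 17.9, *TMEM256-PLSCR3* with 16.3 and *RBAK-RBAKDN* with 15.1.

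The libraries came from HBECs, wild-type bronchial epithelial cells of human origin kept as an immortalized line. Cells received CRE, an extract of cockroach that serves as an allergen, either alone (3 libraries) or with VAF347 (3 libraries), and RNA was taken at 24 h. VAF347 is a small-molecule agonist of the aryl hydrocarbon receptor (AhR), and the paper's methods describe it as a pre-treatment given before CRE. The comparison asks how AhR activation altered transcripts of allergen-treated cells, and CRE was present in both groups. It rests on a single line in culture, and the samples are not described as separate cultures, so p-values measure only the spread between these libraries, which may be technical.

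Transcription normally ends after RNA polymerase II has passed the poly(A) signal of a gene, where the transcript is cleaved. When cleavage fails or is skipped, the polymerase can run into the next gene, and the joined pre-mRNA can be spliced across the boundary. The last exon of the upstream gene has no donor site and the first exon of the downstream gene has no acceptor site, so the usual readthrough mRNA joins the next-to-last exon of A to the second exon of B. Such transcripts may encode fusion proteins, but many carry premature stop codons and are open to nonsense-mediated decay. Because nearly all of their sequence is also present in A or B, short reads seldom tell the 3 genes of a locus apart.

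In the annotation (GENCODE v44, GRCh38), for 79 of the 80 genes the readthrough gene overlapped both parents on its own strand, and the exception was *PTGER4P2-CDK2AP2P2*. A total of 69 were annotated as protein coding and 11 as long non-coding RNA. The annotation's own readthrough tag was on 69 genes, and the long non-coding ones lacked it. At least 1 transcript annotated as a target of nonsense-mediated decay was found for 37, and 7 had a pseudogene as a parent. The parents lay a median of 3519 bp apart, in 8 cases they overlapped each other, and the widest gap was 573553 bp, at *IQCJ-SCHIP1*. A splice junction running directly from A to B was annotated for 68 genes, across introns of 679 to 132570 bp (median 15276.5 bp). Paths through exons lying between the parents were not searched for. In 36 of the 68 the donor was the next-to-last exon of the main transcript of A, in 52 the acceptor was exon 2 of the main transcript of B, and in 28 both held.

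The junction is where a readthrough mRNA joins its parents, so junctions are printed for the genes that the results below turn on. Some of these genes also have other sequence that their parents lack. Each is read 5′ to 3′ on the transcribed strand of GRCh38, with the end of the upstream exon in lower case and the start of the downstream exon in capitals. Coding junctions show 30 bases on each side and the others 15. *NDUFC2-KCTD14*, the only readthrough gene that was called as changed, has 4 annotated introns from A to B. The junction printed for it joins position 78072998 to position 78038758 of chromosome 11 (minus strand). It starts from exon 2 of the 3 exons of *NDUFC2*, and its acceptor is not an exon of the main transcript of *KCTD14*. Counts are per gene and do not show which junction was used. The junction of *PDCD6-AHRR*, whose downstream parent encodes the AhR repressor, joins 304221 to 343893 of chromosome 5 (plus strand), from exon 3 of *PDCD6* to exon 2 of *AHRR*. *PPT2-EGFL8* (chromosome 6, plus strand, 32162622 to 32166138) and *BCL2L2-PABPN1* (chromosome 14, plus strand, 23308199 to 23322181) passed the adjusted p limit with a smaller fold change. *STIMATE-MUSTN1* (chromosome 3, minus strand, 52840500 to 52833749) had the largest positive fold change among the genes not called. *HNRNPUL2-BSCL2* (chromosome 11, minus strand, 62715500 to 62707324) had a library far above the other 5, and its junction is its only distinguishing sequence. *FMC1-LUC7L2* (chromosome 7, plus strand, 139345621 to 139376062) and *ABCF2-H2BK1* (chromosome 7, minus strand, 151214058 to 151208107) were among the most abundant.
NDUFC2-KCTD14: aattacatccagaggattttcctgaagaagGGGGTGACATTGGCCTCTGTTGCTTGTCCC
PDCD6-AHRR: tcaggtcgatcatatGCCGAGGACGATGAT
PPT2-EGFL8: atggaggagcaactgCCTGTAGGGTCCAGC
BCL2L2-PABPN1: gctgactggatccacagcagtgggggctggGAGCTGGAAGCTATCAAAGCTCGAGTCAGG
STIMATE-MUSTN1: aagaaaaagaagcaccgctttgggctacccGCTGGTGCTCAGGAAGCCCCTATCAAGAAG
HNRNPUL2-BSCL2: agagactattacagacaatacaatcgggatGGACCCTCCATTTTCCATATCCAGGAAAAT
FMC1-LUC7L2: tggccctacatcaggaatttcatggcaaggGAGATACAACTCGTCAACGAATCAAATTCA
ABCF2-H2BK1: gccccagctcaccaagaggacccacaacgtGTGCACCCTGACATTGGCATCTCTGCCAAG

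How much of each gene can be told apart was counted as the share of its 31-base stretches (31-mers) that occur in the transcripts of no other gene. The median over the 80 genes was 8.04%. It was under 5% for 30 genes, and 12 genes had no more than 31 such stretches, about what a single splice junction provides. *HNRNPUL2-BSCL2* had 30 and all of them cross the junction, while *SLX1B-SULT1A4* had 0. At the other end *IQCJ-SCHIP1* had 57.3%, and 56.6% of its exonic bases lay outside the exons of both parents. For 17 genes every exonic base lay in a parent's exon. Of the genes with a printed junction, *FMC1-LUC7L2* and *ABCF2-H2BK1* each had 27 distinguishing 31-mers, all across the junction. At *PPT2-EGFL8* 29 of 1509 crossed it and at *NDUFC2-KCTD14* 27 of 111, so counts of such genes can come from sequence away from the printed junction. The deposited counts are Salmon estimates, in which a fragment that fits several transcripts is divided among them, so a readthrough count depends on how fragments shared with A and B were divided.

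The values themselves were also compared with those of other genes. Among counts above 0, 98.0% were not whole numbers for readthrough genes (more than 0.001 from a whole number), against 89.2% for upstream parents, 90.0% for downstream parents and 36.0% for all 17835 genes with at least 20 summed counts. A total of 19 readthrough genes (23.8%) had a library at 0, against 6 upstream parents (7.5%), 20 downstream parents (25%) and 2.11% of all those genes. The estimate was 0 in a library and at least 20 in another for 7 readthrough genes (8.75%), 0 upstream parents, 1 downstream parent (1.25%) and 0.409% of all those genes. The sets were not matched for abundance: median counts per library were 29.1 for readthrough genes, 252 for upstream and 117 for downstream parents. Parents also had no lower limit on counts. The part of low counts in these zeros was not tested.

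The libraries held 8873160 to 10750283 estimated counts, and the readthrough genes together took 0.0639% to 0.0726% of them. The line was checked against markers: the 10 epithelial markers listed summed to 3701 to 4612 TPM (a level scaled for transcript length and library depth). They were led by *KRT8*, *KRT18*, *KRT19* and *EPCAM*. Of the basal markers, *TP63* and *KRT14* were at no more than 2 counts in any library. *KRT5* and *KRT17* were present in every library, at 108 to 169 and 1133 to 1622 counts. *KRT17*, *KRT7* and *KRT19* passed the adjusted p limit below the fold limit (log2 fold changes -0.27, -0.29 and -0.38). In the same libraries ciliated and secretory markers summed to 0.281 to 0.856 TPM, with *SCGB1A1* and *MUC5AC* at 0 in every library. Listed endothelial markers summed to 7.31 to 7.92 TPM with CRE and 3.95 to 4.67 with CRE + VAF347 (*CDH5* and *VWF* fell), and fibroblast markers to 25.2 to 27.6 and 16.4 to 22.1 (*VIM* fell, with *DCN* and *LUM* at 0). Leukocyte markers summed to 21.2 to 24.6 and 13.9 to 19.5 TPM, nearly all of it from *CD68*. *PTPRC* and *CD3E* were at no more than 2 counts in any library. Only *CD68* passed the filter on low counts, and it was not called (log2 fold change -0.43, edgeR adjusted p = 0.0912). The part of these markers in the results was not tested. In bulk libraries, fewer cells of a type and less RNA per cell cannot be told apart. The 4 listed AhR targets all rose with VAF347: log2 fold changes were 6.20 for *CYP1A1*, 3.14 for *CYP1B1*, 2.24 for *TIPARP* and 2.16 for *AHRR*. CRE replicate 3 stood apart, with a mean chi-square of 8.52 and 8.24 per gene against the other CRE libraries where the other within-group comparisons gave 1.75 to 2.46, so the results below are also given without it where that matters.

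Readthrough transcripts were a small part of what most loci made. The mean level of the 80 genes ran from 0.0848 to 76.3 TPM with a median of 2.39, against medians of 26.9 TPM for upstream and 8.23 TPM for downstream parents. As a share of the TPM of its locus (A, B and A-B summed), the median readthrough gene held 3.89%. The share was under 5% for 45 genes and at least 50% for 5. Only 9 genes were above their upstream parent in mean TPM, 29 were above their downstream parent, and 5 were above both.

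The highest level was that of *BOLA2-SMG1P6*, which joins *BOLA2*, a gene of iron-sulfur cluster handling, to a pseudogene of the decay kinase *SMG1*. It had 321.4, 341.1 and 283.4 counts with CRE and 275.9, 318.5 and 341.3 with CRE + VAF347, with overlapping groups. Its levels were 74.1 ± 1.99 (SD, n = 3) and 78.5 ± 1.29 TPM (SD, n = 3), or 30.9% and 28.8% of its locus, and *SMG1P6* itself stayed at no more than 6.4 counts. Of the exonic bases of *BOLA2-SMG1P6*, 71.1% lay in neither parent, and 40.9% of its 31-mers were found in no other gene. Some of its other 31-mers occur in genes outside this locus. How much of its level and share came from transcripts that join A to B was not tested. *FMC1-LUC7L2*, which joins an assembly factor of mitochondrial ATP synthase to a splicing factor bound to U1 snRNP, had 36.7 ± 2.50 (SD, n = 3) and 30.7 ± 7.59 TPM (SD, n = 3). *ABCF2-H2BK1*, which runs from an ATP-binding cassette protein into a histone H2B gene, had 30.4 ± 4.89 (SD, n = 3) and 26.2 ± 2.09 TPM (SD, n = 3). *H2BK1* had at most 1.0 count in any library. *ANKHD1-EIF4EBP3* showed the same order, with 24.0 and 23.3 TPM against 1.05 and 1.06 TPM for *EIF4EBP3*, an inhibitor of translation initiation.

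*RPL17-C18orf32* had 118.1, 102.4 and 118.9 counts with CRE and 101.6, 104.9 and 115.0 with VAF347. Its 21.4 and 20.9 TPM were 1.65% and 1.47% of its locus, where *RPL17*, a protein of the large ribosomal subunit, stood at 1293 and 1386 TPM. *SAA2-SAA4*, made of serum amyloid A genes, had 19.6 ± 5.14 (SD, n = 3) and 19.8 ± 4.11 TPM (SD, n = 3). *SLX1A-SULT1A3*, which joins a DNA repair endonuclease subunit to a sulfotransferase, had 15.7 ± 5.43 (SD, n = 3) and 19.6 ± 6.46 TPM (SD, n = 3), and a near-identical copy of this locus makes its counts uncertain. *PDXDC2P-NPIPB14P*, a long non-coding RNA over pseudogenes, had 14.2 ± 0.934 (SD, n = 3) and 15.8 ± 1.94 TPM (SD, n = 3). None of these 8 most abundant genes was called, and their log2 fold changes ran from -0.28 (*ANKHD1-EIF4EBP3*) to 0.43 (*SLX1A-SULT1A3*).

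At a few loci the gene with the compound name took most of the signal. No intron running directly from A to B was annotated for *SUGT1P4-STRA6LP*, *PDXDC2P-NPIPB14P*, *IQCJ-SCHIP1* or *ARMCX5-GPRASP2*. Of the exonic bases of these genes, 60.7%, 54.1%, 56.6% and 88.7% lay in neither parent. Their transcripts were not searched for a path from A to B through exons between the parents. All of these except *IQCJ-SCHIP1*, and also *PKD1P6-NPIPP1*, are long non-coding RNAs without the readthrough tag. *IQCJ-SCHIP1* carries the tag, with 8.6% and 34.8% of its exonic bases in *IQCJ* and *SCHIP1*, and *PKD1P6-NPIPP1* has an annotated junction from A to B. How much of the share of each of these genes came from transcripts that join A to B was not tested. Among genes with a mean of at least 10 counts per library, *SUGT1P4-STRA6LP* held 100% of its locus in every library and *PDXDC2P-NPIPB14P* held 99.4% with CRE and 100% with VAF347. All 4 of their parents are pseudogenes, and 3 of these were at 0 in every library. *PKD1P6-NPIPP1* held 89.3% ± 3.25 (SD, n = 3) and 87.7% ± 8.96 (SD, n = 3). *IQCJ-SCHIP1*, which encodes a neuronal form of the cytoskeletal protein SCHIP1, held 82.4% ± 9.33 (SD, n = 3) and 89.3% ± 5.68 (SD, n = 3), with *IQCJ* at 0 throughout. *TVP23C-CDRT4* held 50.1% and 55.0%, with *CDRT4* at 0 in every library, and *ARMCX5-GPRASP2* held 40.3% and 37.0%. *ABCF2-H2BK1* followed at 39.6% and 34.6%.

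Summed over all loci, the readthrough share of TPM with CRE alone was 3.24%, 3.21% and 4.40%, and with CRE + VAF347 it was 3.18%, 3.22% and 3.42%. The groups overlapped, and only CRE replicate 3 was set off from the other 5. The means were 3.62% ± 0.681 (SD, n = 3) and 3.27% ± 0.132 (SD, n = 3), a difference of -0.347 percentage points (exact permutation test, two-sided, p = 0.6, where 3 against 3 cannot go below 0.1). Without CRE replicate 3 the difference turned to 0.0466 percentage points (exact permutation test, p = 0.9). A general rise or fall of readthrough share with VAF347 was thus not detectable with these libraries.

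**Figure D1:**
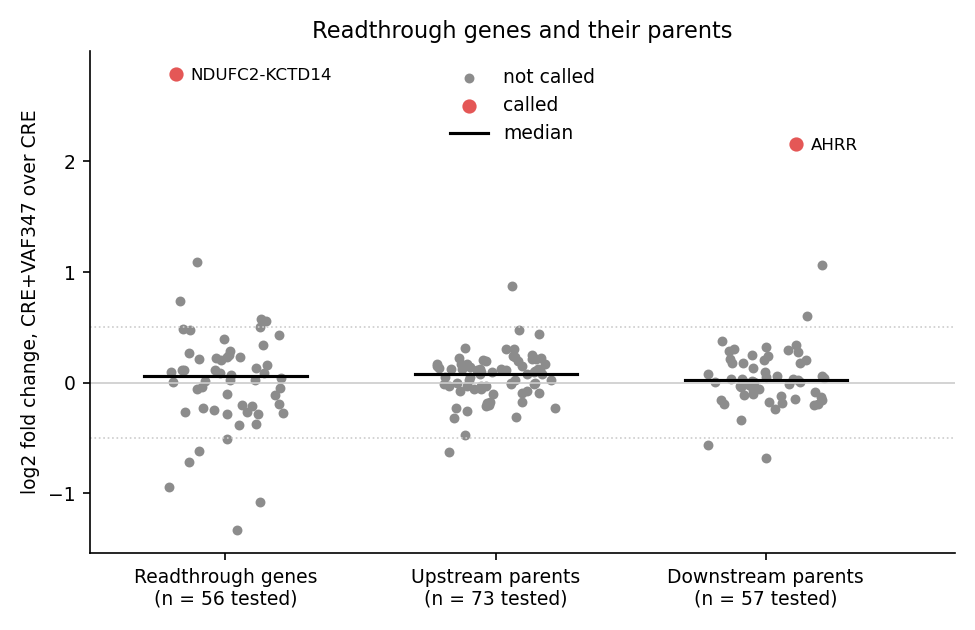
Log2 fold changes (CRE + VAF347 over CRE, edgeR) of the tested readthrough genes and of their tested upstream and downstream parents, with 1 point per gene, a black line at each median and dotted lines at the fold limits of 0.5 and -0.5. Readthrough genes run from -1.33 to 2.79 with a median of 0.06, upstream parents from -0.63 to 0.88 and downstream parents from -0.68 to 2.16, and the called genes (red) are *NDUFC2-KCTD14* at 2.79 and *AHRR* at 2.16.

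To ask which readthrough genes differed between the treatments, counts of all genes were fitted together with edgeR's quasi-likelihood test and p-values were adjusted by Benjamini-Hochberg over all 15373 genes that passed a filter on low counts. A gene is called here when its adjusted p is under 0.05 and its log2 fold change is over 0.5 or under -0.5, which held for 2.21% of all tested genes (0.501% higher and 1.71% lower with VAF347). The filter passed 56 readthrough genes and removed 24. Of the 56, 1 was called higher (*NDUFC2-KCTD14*, which passed the filter and the membership limit only through its CRE + VAF347 libraries) and 0 lower. At an adjusted p under 0.05 and any fold change there were 3, all higher, where the background over all genes was 5.42% in either direction and 1.35% higher. An unadjusted p under 0.05 was found for 10 readthrough genes (17.9%) and for 20.8% of all tested genes. The median log2 fold change was 0.06, with 33 above 0 and 23 below, against a median of 0.01 over all tested genes. The 3 libraries of a group lay wholly above or below the other 3 for 8 readthrough genes (14.3%), 6 of them higher with VAF347 (background 12.5%) and 2 lower (background 14.8%), where the background in either direction was 27.3%. With no filter on low counts edgeR called 11 of the 80 readthrough genes, 5 higher and 6 lower, where the background was 2.1%. They included *NDUFC2-KCTD14*, *PDCD6-AHRR* and genes with a single high library such as *HNRNPUL2-BSCL2*. Several met the membership limit only through the group where they are high. Among these were *PDCD6-AHRR*, at 0 in every CRE library, and *BLOC1S5-TXNDC5*, at 0 in every CRE + VAF347 library. The calls without a filter are thus a description and not support for a change of readthrough genes.

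Few parents passed the test. Of 73 tested upstream parents 0 were called by edgeR, 12 (16.4%, against 20.8% of all tested genes) had an unadjusted p under 0.05, and DESeq2 also called 0. Without the fold limit 2 passed: *PPT2* (log2 fold change 0.31) and *SAA2* (-0.47). Of 57 tested downstream parents 1 was called, *AHRR*, and *ERVK3-1* also passed the p limit, at 0.28. The upstream median was 0.08 and the downstream median 0.03.

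*NDUFC2-KCTD14* joins *NDUFC2*, a subunit of mitochondrial complex I, to *KCTD14*, a protein with a BTB domain. It lies on chromosome 11 from 78016971 to 78079865 on the minus strand. It had 1.9, 1.8 and 1.7 counts with CRE and 8.5, 11.2 and 21.4 with CRE + VAF347. The groups were fully apart, but every CRE library was under 3 counts, so the gene reached both the membership limit and the filter through its CRE + VAF347 libraries. Against a level of 3 counts in each CRE library it was at least 4.83-fold higher. The fit gave a log2 fold change of 2.79 (SE 0.50, edgeR adjusted p = 0.00808). That fold depends on the prior count, and as the gene entered through the group where it is high, both values are given as a description of this gene and not as support for a change of readthrough genes.

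**Figure D2:**
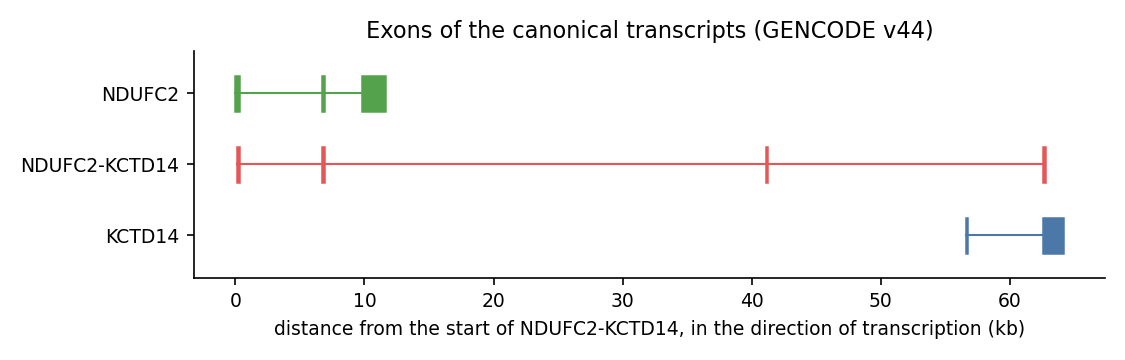
Exons (boxes) and introns (lines) of the canonical transcripts of *NDUFC2*, *NDUFC2-KCTD14* and *KCTD14*, placed by distance in kb from the start of the readthrough gene. The readthrough transcript uses 2 exons that overlap *NDUFC2*, skips the long last exon of *NDUFC2*, and ends on an exon within the last exon of *KCTD14*.

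In TPM the level of *NDUFC2-KCTD14* was 0.513 ± 0.0248 (SD, n = 3) and 4.06 ± 1.83 (SD, n = 3), which was 0.116% ± 0.0193 (SD, n = 3) and 0.77% ± 0.317 (SD, n = 3) of the locus. Its 111 distinguishing 31-mers made up 12.6% of its sequence. The parents did not pass the test: *NDUFC2* had 1125, 1149 and 788 counts with CRE and 1033, 1046 and 1213 with VAF347 (log2 fold change 0.20, adjusted p = 0.446), and *KCTD14* had 55.0, 61.9 and 78 against 46.7, 63.2 and 56.7 (-0.12, adjusted p = 0.724). The readthrough counts were thus under 2% of those of *NDUFC2* in each library. The part that the division of shared fragments had in the difference was not tested. The gene did not pass the filter without CRE + VAF347 replicate 3, its highest library, and no readthrough gene was then called. DESeq2 gave a log2 fold change of 2.86 with an unadjusted p of 0.0012 but no adjusted p, since its own filter set that aside.

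**Figure D3:**
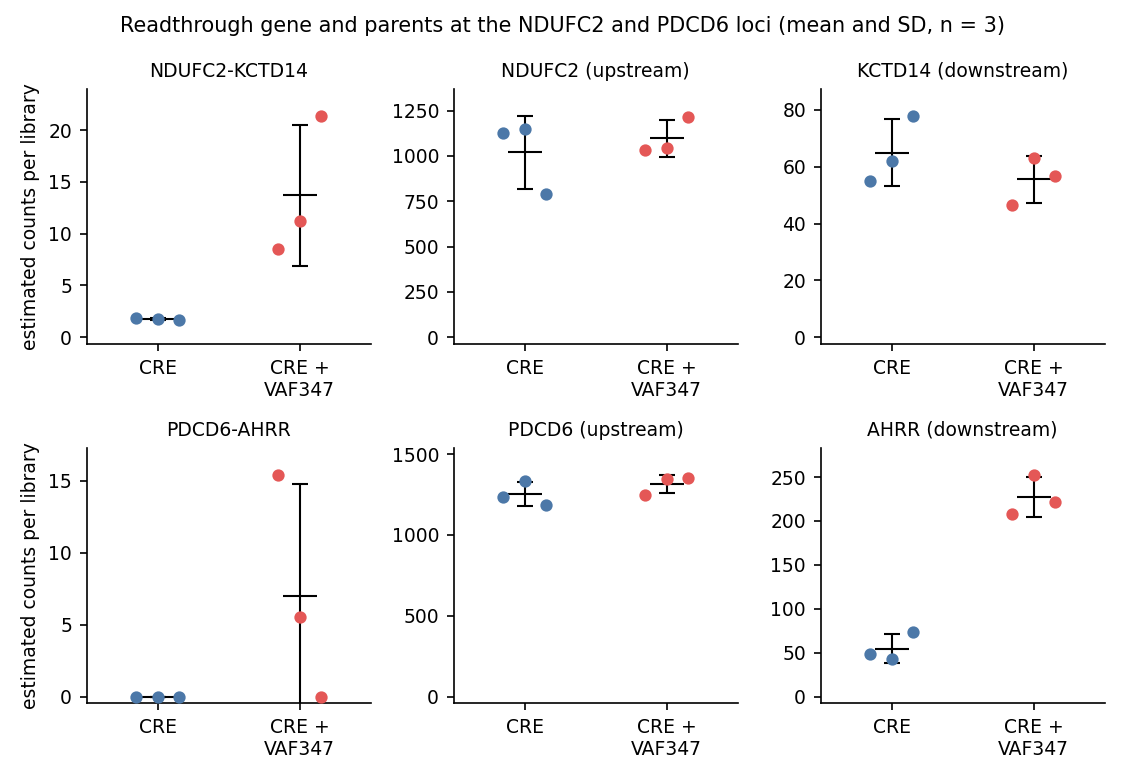
Estimated counts in each library (points) with the mean and SD of 3 libraries (bars) for the readthrough gene and its parents at the *NDUFC2* and *PDCD6* loci, on linear axes. *NDUFC2-KCTD14* was at 1.7 to 1.9 counts with CRE and at 8.5 to 21.4 with CRE + VAF347, *AHRR* did not overlap between groups, and *PDCD6-AHRR* was above 0 in 2 CRE + VAF347 libraries.

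*PDCD6-AHRR* shares its locus with the AhR repressor, which AhR itself switches on. It lies on chromosome 5 from 271670 to 438291 on the plus strand, and *PDCD6* encodes a calcium-binding protein. It had 0 counts in all 3 CRE libraries and 15.4, 5.5 and 0 with CRE + VAF347, so it met the membership limit only through its CRE + VAF347 libraries. Since replicate 3 of the treated group was also at 0, the groups overlapped, and the gene did not pass the filter and was not tested. Only 2.38% of its 31-mers, 140 in number, were found in no other gene.

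At the same locus *AHRR* rose from 48.0, 43.0 and 73.0 counts to 207.7, 252.5 and 222.0 (log2 fold change 2.16, SE 0.16, edgeR adjusted p = 3.2e-05). *PDCD6*, the gene through which a readthrough transcript would have to begin, had 1235, 1333 and 1188 against 1248, 1346 and 1350 counts (log2 fold change 0.17, adjusted p = 0.190). The readthrough gene held 0.0801% ± 0.0924 (SD, n = 3) of the locus TPM with VAF347. Summed over the 3 genes, which does not depend on how fragments were divided among them, the locus had 1283, 1375 and 1261 counts with CRE and 1471, 1604 and 1572 with VAF347, a log2 fold change of 0.35 (SE 0.07, edgeR adjusted p = 0.0119).

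*PPT2-EGFL8* joins a lysosomal thioesterase to a secreted protein with EGF-like domains. It had 91.9, 99.9 and 117.0 counts with CRE and 117.4, 144.4 and 139.3 with VAF347, with the nearest libraries almost level. The log2 fold change was 0.48 (SE 0.12, edgeR adjusted p = 0.0361), just under the fold limit. Both parents were also above 0, *PPT2* at 0.31 (adjusted p = 0.0320) and *EGFL8* at 0.61 (adjusted p = 0.176), and the share of the readthrough gene was level at 10.3% and 10.1% of the locus. The sum of the locus had a log2 fold change of 0.40 (SE 0.08, edgeR adjusted p = 0.0162).

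*BCL2L2-PABPN1* joins the anti-apoptotic gene *BCL2L2* to *PABPN1*, the nuclear poly(A)-binding protein that takes part in forming 3′ ends. It had 103.5, 125.1 and 156.2 counts with CRE and 155.7, 159.2 and 191.3 with VAF347. CRE replicate 3 was level with the lowest treated library in counts, and the groups were apart only after scaling for depth. The log2 fold change was 0.50 (SE 0.12, edgeR adjusted p = 0.0406), which did not exceed the limit, while *BCL2L2* was at 0.14 and *PABPN1* at 0.04. Its share of the locus was 4.55% ± 0.792 (SD, n = 3) and 5.74% ± 0.126 (SD, n = 3). It passed both limits with DESeq2 size factors and without CRE replicate 3.

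When the counts of each readthrough gene and its parents were added up, the 80 genes gave 79 loci, since *SUGT1P4-STRA6LP* is itself the parent of a longer readthrough gene. Of these, 78 passed the filter and 0 were called by edgeR (background 2.23%). An unadjusted p under 0.05 was found for 18 of the 78, a limit that 20.8% of all tested genes passed in the fit by gene. Only *PDCD6-AHRR* and *PPT2-EGFL8* passed the adjusted p limit at any fold change (background 5.48%). The *NDUFC2-KCTD14* locus was not among them.

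The largest fold changes that were not called came from genes with few or uneven counts. *STIMATE-MUSTN1*, which joins a calcium channel regulator of the endoplasmic reticulum to a small nuclear protein of muscle and skeleton, had 11.2, 16.8 and 10.3 counts against 19.9, 21.3 and 35.3 (log2 fold change 1.09, edgeR adjusted p = 0.0707). Its groups did not overlap, and *MUSTN1* was at 0 in 5 of 6 libraries. *CFAP298-TCP10L*, which begins in a gene needed for cilia assembly, had 46.9, 22.9 and 39.0 against 65.9, 37.5 and 67.4 counts (0.74, adjusted p = 0.177), and its groups overlapped. *RNASEK-C17orf49* had 4.6, 24.8 and 15.7 against 9.7, 6.5 and 3.1 counts (-1.08, adjusted p = 0.303). *POC1B-GALNT4*, from a centriole gene into a glycosyltransferase, had 11.1, 15.5 and 13.9 against 8.1, 11.4 and 4.1 (-0.72, adjusted p = 0.324).

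The other large values came from libraries that jumped. *HNRNPUL2-BSCL2*, which joins an RNA-binding protein to seipin, a protein of lipid droplet formation, had 121.9, 141.4 and 628.7 counts with CRE and 174.6, 119.9 and 129.1 with VAF347. CRE replicate 3 was over 3 times as high as any other library, and the log2 fold change of -0.94 had an adjusted p of 0.316 with edgeR. The parents did not jump: *HNRNPUL2* had 3519 counts in that library against 3427 to 4210 in the others, and *BSCL2* had 902 against 874 to 970. *TIMM23B-AGAP6* had 0, 51.4 and 45.0 counts against 13.2, 0 and 21.6 (-1.33, adjusted p = 0.431), with a library at 0 in each group. *SLX1B-SULT1A4* had 134.5, 130.6 and 0 against 130.3, 42.3 and 157.9 counts, and its copy *SLX1A-SULT1A3* had 289.6, 295.7 and 391.8 against 291.5, 503.6 and 434.1. Added together the copies had 424.1, 426.4, 391.8, 421.8, 545.9 and 592.0 counts in the order of the libraries.

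**Figure D4:**
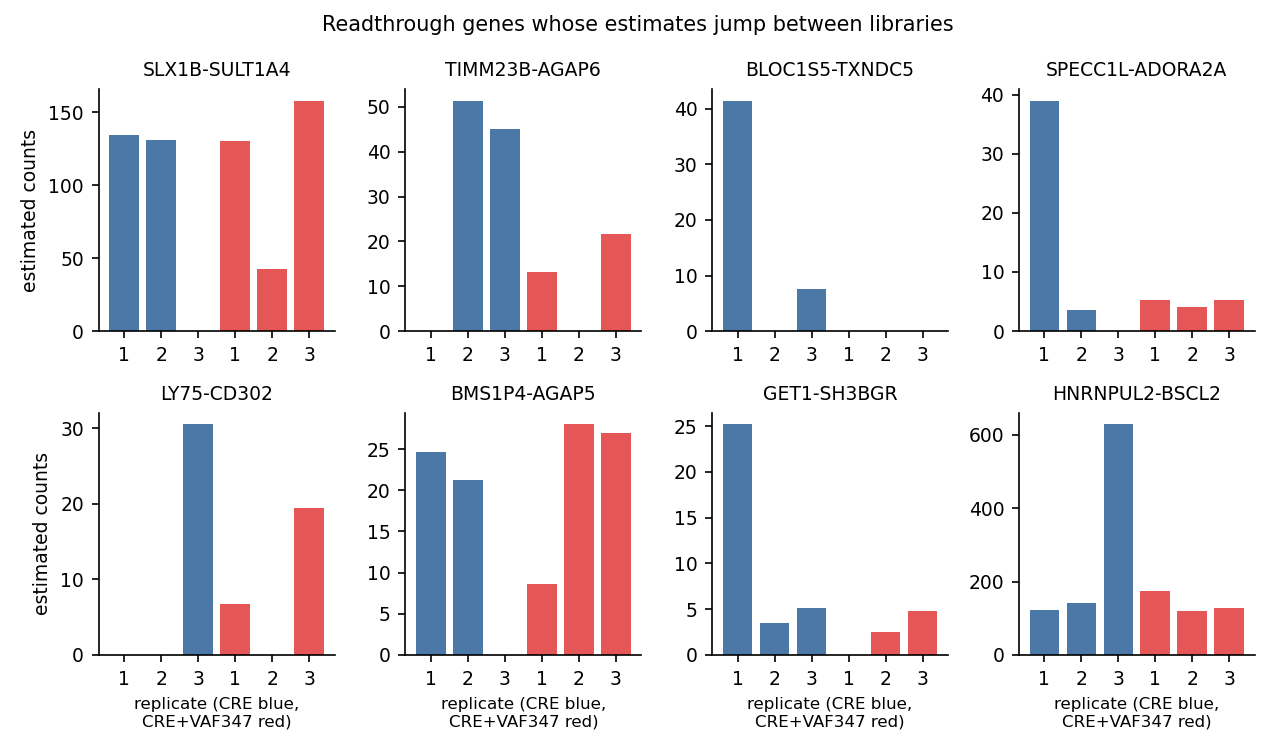
Estimated counts by replicate in CRE (blue) and CRE + VAF347 (red) libraries, on linear axes from 0, for 7 readthrough genes with a library at 3 counts or fewer and another at 20 or more, and for *HNRNPUL2-BSCL2*. The same rule also holds for *NDUFC2-KCTD14*, plotted with its parents, whose low and high libraries are split by group. In this plot *BLOC1S5-TXNDC5* was above 0 with CRE only, and *HNRNPUL2-BSCL2* reached 628.7 counts in CRE replicate 3 alone.

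The remaining genes of this kind were mostly low. *BLOC1S5-TXNDC5*, from a gene of lysosome-related organelles into a disulfide isomerase, had 41.5, 0 and 7.5 counts with CRE and 0 in every CRE + VAF347 library. *SPECC1L-ADORA2A*, which ends in an adenosine receptor gene, had 39.0, 3.6 and 0 against 5.2, 4.1 and 5.2. *LY75-CD302*, made of lectin receptor genes, had 0, 0 and 30.5 against 6.8, 0 and 19.4. *GET1-SH3BGR* had 25.2, 3.5 and 5.1 against 0, 2.5 and 4.8, and these 4 did not pass the filter. *BMS1P4-AGAP5* did pass, with 24.7, 21.3 and 0 against 8.6, 28.0 and 27.0 counts (log2 fold change 0.56, edgeR adjusted p = 0.681). *FPGT-TNNI3K*, just inside the membership limit, took 14.5 of its 20.8 counts from CRE + VAF347 replicate 2.

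How far libraries of a group differed was also compared with other genes. edgeR fits a trend of the dispersion, the spread between replicates beyond counting, against abundance, and the ratio of a gene's own dispersion to that trend was taken. The ratio was above 1 for 38 of 56 tested readthrough genes (67.9%) with a median of 2.23, against medians of 0.643 for upstream and 0.556 for downstream parents. Over all tested genes 4615 of 15373 were above 1 and the median was 0.395. Among readthrough genes with under 5% of distinguishing 31-mers the median was 5.27, with 16 of 20 above the trend. Among those with at least 25% it was 0.838, with 7 of 14 above. Across the 56 genes, Spearman's rho between the ratio and the distinguishing share was -0.42, a description over genes that share libraries and partly sequence. The highest ratio was that of *SLX1B-SULT1A4*, at 273.8 with no distinguishing sequence. A total of 10 tested genes stood at the lowest dispersion the fit can give, where the ratio reflects abundance alone. They included 3 of the genes under 5%, among them *POC1B-GALNT4* with 4.95%, and 5 of those with at least 25%, among them *IQCJ-SCHIP1* with 57.3%. The others lay between these limits.

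**Figure D5:**
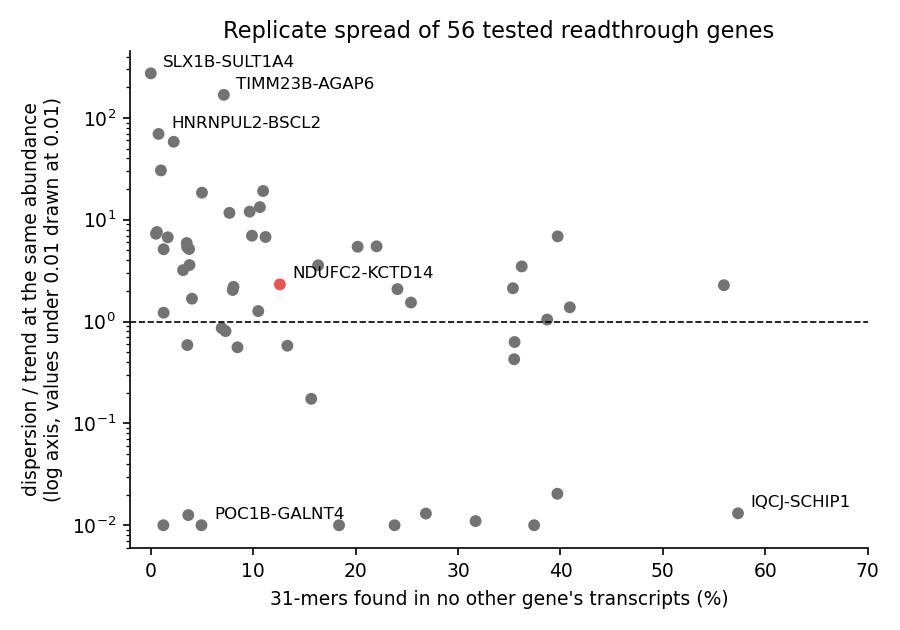
Ratio of each tested readthrough gene's dispersion to the trend at its abundance (log axis, dashed line at 1) against the share of its 31-mers found in no other gene, with *NDUFC2-KCTD14* in red. The median ratio is 5.27 below 5% and 0.838 from 25% upward.

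The machinery that ends, splices and clears such transcripts was read from lists of genes. Of 37 tested genes of 3′ end processing and termination, 0 were called by edgeR and 0 passed at any fold change, with 5 (13.5%) at an unadjusted p under 0.05, a limit that 20.8% of all tested genes passed. Their log2 fold changes ran from -0.24 to 0.19. Of 22 tested U1 snRNP and spliceosome genes, which include factors that keep polymerase from stopping early, 0 were called and 0 had an unadjusted p under 0.05. Spread between replicates was wide in this list, with a median dispersion ratio to the trend of 1.62 against 0.395 over all tested genes. That limits what its test could find, and the list is not given here without CRE replicate 3. Of 22 tested genes of nonsense-mediated decay 0 were called, with 3 (13.6%) at an unadjusted p under 0.05, and DESeq2 called 0 in each of the 3 lists. Only *MAGOHB*, a core protein of the exon junction complex, passed the adjusted p limit at a smaller fold change (log2 fold change 0.41, edgeR adjusted p = 0.0404).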

How the data were processed

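Poly(A)-selected paired-end RNA-seq libraries of HBECs (3 CRE, 3 CRE + VAF347) were analysed, grouped by their titles, with 0 columns left unmatched. The authors estimated expression with Salmon, and the deposited expected counts are estimates per gene without depth scaling. Salmon's TPM values were deposited by the authors beside them. Per the labels the build was hg38, while the Salmon version, annotation and strand setting are not given in the sources used here. The authors' table of fold changes and p-values, made with DESeq2, was not used.

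Expected counts were rounded to whole numbers. Genes were kept with filterByExpr, scaled by TMM and tested by quasi-likelihood with Benjamini-Hochberg adjustment, using edgeR 4.0.16 under R 4.3.3. The standard error was taken from the fold change and the F value. The scripts were tested on simulated data. DESeq2 1.42.0, limma 3.58.1 on log2(TPM + 1) and log2(TPM + 0.1), other size factors and filters, length offsets, a replicate block and leaving out each library were alternatives. Positions, exons and 31-mers came from GENCODE v44, which held all 61228 names, and bases from GRCh38. The main fit did not pair libraries by replicate number, since the labels do not say that a number marks a shared culture. Deviations of same-numbered libraries correlated at 0.0529, 0.0327 and 0.0154, against -0.0417 to 0.0103 for the other pairs. These weak correlations cannot decide whether the numbers mark pairs. Genes were named by rule: those called or with a called parent, the highest in TPM, share, uncalled fold change or range of counts, and those beside the count limit. *PPT2-EGFL8* and *BCL2L2-PABPN1* were added after their values were seen. The genes, lists and rules were chosen with earlier results of these data known.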

Additional observations from a re-analysis of the deposited data

How the results depend on the processing

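The number of readthrough genes called (1) was 2 with DESeq2 size factors, 3 with the replicate block (which added *BCL2L2-PABPN1* and *PEDS1-UBE2V1*), 3 at any fold change, 0 with at least 60 summed counts (which removes *NDUFC2-KCTD14* from the members), 0 with DESeq2, where 40 readthrough genes had no adjusted p, and 0 with limma on log2(TPM + 1) without a filter. Without a filter on low counts edgeR called 11, among them genes with a single high library such as *HNRNPUL2-BSCL2* and *BLOC1S5-TXNDC5*, and its median prior degrees of freedom were 7686 against 7.24. Leaving out each library gave 0 to 4: 0 without CRE + VAF347 replicate 3, 2 without CRE + VAF347 replicate 1, and 4 without CRE replicate 3, which added *BCL2L2-PABPN1*, *PPT2-EGFL8* and *SLX1A-SULT1A3*. Upstream parents called (0) were 1 without a filter, 2 at any fold change and 0 to 1 over the libraries left out (*SAA2* without CRE replicate 3, *SLX1B* without CRE + VAF347 replicate 1). Downstream parents called (1) were 3 without a filter, 2 at any fold change, 0 with limma without a filter (where *AHRR* had a log2 fold change of 1.28 and an adjusted p of 0.170) and 1 to 2 over the libraries left out (*SAPCD1* without CRE replicate 3). Nonsense-mediated decay genes called (0) were 1 at any fold change. The replicate block changed no other count of calls by over 1.5 times. The difference in readthrough share turned to 0.0466 percentage points without CRE replicate 3 and ran from -0.549 to 0.0466 over the libraries left out. Causes were not tested. For 27 of the 80 readthrough genes a mean of under 10 counts per library limits what can be read.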
